A study of Solanum lycopersicum with 12 samples.

Results

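The ethylene receptors, the CTR kinases that act beneath them and the EIN3-like (EIL) transcription factors were followed in roots of transgenic and wild-type tomato. They were found on the array as every probe set whose gene symbol or synonym in the platform annotation is NR, or is ETR, CTR or EIL and a digit. This gave 13 of the 10209 probe sets, 1 for each gene name that met the rule: 6 receptors (ETR1, ETR2, NR, ETR4, ETR5 and ETR6), 3 kinases (CTR1, CTR3 and CTR4) and 4 EIN3-like factors (EIL1 to EIL4). NR, the Never-ripe gene, is listed under the identifier LOC544279 with the synonym ETR3. The kinase TCTR2 has another prefix and is not a member. Another probe set is listed as TCTR1v, a name that is also a synonym of CTR1. For the same reason it is not a member, and its changes are not given.

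The arrays form 4 groups of 3: the epidermis and cortex (EC) of transgenic line 4 (L4), the EC of the wild type (WT), the stele (S) of L4 and the S of WT. Both genotypes are var. Beta, and L4 is a single line that carries AtHMA4, a Zn transporter of Arabidopsis, under the constitutive CaMV 35S promoter. All plants received 5 μM Zn; the sample labels give 15 days of this supply and an age of 25 days, whereas the study's methods give a shorter exposure. Each sample came from pooled roots of 1 of 3 independent experiments, was cut out by laser microdissection, and its RNA was amplified before labelling. No AtHMA4 probe set was found in the annotation of the tomato array, so the transgene itself was not checked on these arrays.

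Ethylene receptors sit in the endoplasmic reticulum and repress the pathway until they bind the hormone. Without ethylene they keep CTR kinases active, which hold back EIN2; once ethylene is bound this repression ends, and EIN2 stabilises the EIN3/EIL factors, which switch on ERF genes and other targets. In roots the pathway is known for restraining elongation and for promoting root hairs and responses to nutrient supply.

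The values are on a log2 scale, so that a difference of 1 is a 2-fold change; they compare arrays for a given probe set and not the levels of different genes. Genotypes were compared within each sector with limma, and a probe set was called changed at an adjusted p under 0.05 (Benjamini-Hochberg over the 10101 probe sets tested) and a difference of 1.2-fold or more. L4 EC replicate 2 was unlike the other arrays: the SD of its values was 3.07, against 3.34 to 3.48 on the other 11, and its 27 spike-in control probe sets averaged 13.9, against 9.65 to 12.4. L4 S replicate 3 (11.9) and WT S replicate 3 (12.4) had the next highest spike-in means. The other 9 arrays lay between 9.65 and 11.01. Control probe sets for the 3' end of a gene exceeded those for its 5' end on every array. The gap was 7.63 to 10.45 for actin, 7.52 to 10.97 for gapdh and 1.31 to 3.82 for ubiquitin. The part of this 3' bias in the changes of the members was not tested. For 9 of the 13 members, L4 EC replicate 2 was the lowest of its group, as it was for 57.3% of the 5084 probe sets that averaged 4 or more over the 12 arrays, called expressed below, a level that all members reach. WT S replicate 3 was the lowest of its group for 8 members and for 46.4% of the expressed probe sets. L4 S replicate 3 was so for 6 members and for 47.2%. EC changes of the members are therefore given with and without L4 EC replicate 2.

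None of the 13 members was called between L4 and WT in either sector, but the estimates were mostly negative. In the EC 0% of all probe sets were called (smallest adjusted p = 0.139), and the lowest adjusted p of a member was 0.325, for ETR6. The change was negative for 12 of the 13 members, with a median of -1.41, whereas it was negative for 39.3% of all probe sets (median 0.075) and for 64.5% of the expressed ones (median -0.33). Without L4 EC replicate 2 it was negative for 11 members, with a median of -0.60. In the S 0% of all probe sets were called (smallest adjusted p = 0.346), and the lowest adjusted p of a member was 0.610, again for ETR6. Here 11 of the 13 changes were negative, with a median of -0.82, against 52% of all probe sets (median -0.0053) and 48.2% of the expressed ones (median 0.024). The S median of the members was -0.47 without WT S replicate 2 and -1.03, with 12 negative, without WT S replicate 3. In both sectors the shares of negative changes over probe sets were computed with all arrays only.

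All L4 arrays lay below all WT arrays for 4 of 13 members in the EC (ETR2, ETR6, EIL2 and EIL4), against 6.31% of all probe sets and 11.6% of the expressed ones. In the S this held for 5 of 13 members (NR, ETR4, ETR5, ETR6 and EIL2), against 2.48% and 3.38%. Without L4 EC replicate 2 the same 4 members were separated in the EC, against 10.7% and 14.8%. Leaving out another array makes separation easier. It gave 9 members without WT EC replicate 1, against 14.7% of all probe sets and 25.5% of the expressed ones. It gave 7 without L4 EC replicate 1 (13.6% and 25.2%) or 3 (10% and 18.2%). Without WT EC replicate 2 (7.54% and 13.6%) or 3 (8.68% and 15.8%) the count stayed at 4. In the S there were 8 without WT S replicate 3 (8.02% and 12.2%) and 6 without L4 S replicate 2 (4.22% and 5.02%). Without any other S array there were 5 (4.37% to 7.72% and 4.74% to 10.3%). ETR6 and EIL2 were separated in both sectors, as were 0.634% of all probe sets and 1.16% of the expressed ones. For no member did all L4 arrays lie above all WT arrays in either sector, a pattern shared by 5.98% of the probe sets tested in the EC and 1.82% in the S. For 3 samples against 3, an exact two-sided permutation test of a single probe set cannot go below 0.1. A lower signal in such tissue samples may come from fewer cells that use a gene or from less RNA per cell, which cannot be told apart. It may also come from differences between arrays such as those given above.

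**Figure D1:**
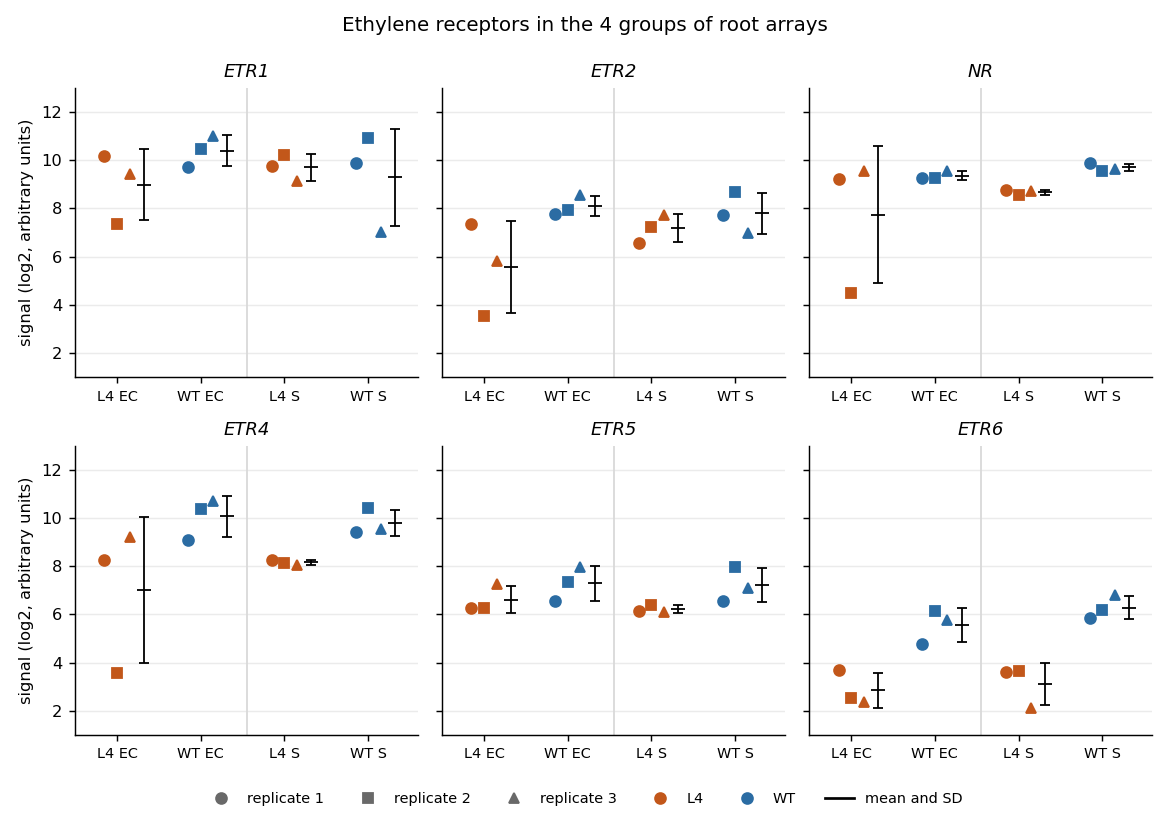
Log2 signal of the 6 receptor probe sets on each array (vertical axis) in L4 EC, WT EC, L4 S and WT S (horizontal axis). Marker shapes are replicate numbers, and the black marks are the group mean and SD (n = 3). ETR6 is lower on all L4 arrays than on all WT arrays in both sectors, while NR and ETR4 are separated in the S and have 1 very low array, replicate 2, in L4 EC.

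ETR6, a receptor of subfamily II, whose members lack conserved motifs of a histidine kinase, was the member with the lowest adjusted p in both sectors. Its log2 values were 3.69, 2.52 and 2.35 in the L4 EC, against 4.78, 6.14 and 5.78 in the WT EC. In the S they were 3.59, 3.67 and 2.12 in L4, against 5.87, 6.17 and 6.79 in WT. All 6 L4 values were thus lower than all 6 WT values, and the 2 sectors of a genotype overlapped. In the EC this was a change of -2.72 (95% interval -3.95 to -1.49, 6.57-fold lower, adjusted p = 0.325), or -2.55 without L4 EC replicate 2. The S change was -3.15 (interval -4.38 to -1.92, 8.86-fold lower, adjusted p = 0.610), or -2.64 without L4 S replicate 3. With all arrays the standard error was 0.55 in each sector. On 2 of the 3 L4 EC arrays and 1 of the 3 L4 S arrays the signal was under the lower quartile of all probe sets on that array (2.36 to 2.81), so the L4 values lie near the bottom of the scale.

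ETR4, another subfamily II receptor, whose loss in tomato is known to heighten the ethylene response, was separated in the S. It had 8.27, 8.13 and 8.06 in the L4 S, against 9.42, 10.43 and 9.52 in the WT S. The L4 S values were close together and lay below the lowest WT S value. The change there was -1.64 with a standard error of 1.21 (adjusted p = 1.00), since the spread is estimated over all 4 groups and includes that of the L4 EC. In the EC the values were 8.24, 3.57 and 9.21 in L4, against 9.10, 10.39 and 10.70 in WT. Replicate 2 was far below the others, and replicate 3 of L4 lay above replicate 1 of WT. With replicate 2 the EC change was -3.06 (standard error 1.21, adjusted p = 0.641), and without it -1.34.

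NR is the receptor whose dominant mutation blocks fruit ripening and ethylene responses in the rest of the plant. Its values in the S were 8.77, 8.57 and 8.71 in L4, against 9.87, 9.57 and 9.65 in WT, 2 tight groups that did not overlap. The change was -1.02 (2.02-fold lower, standard error 1.08, interval -3.45 to 1.41, adjusted p = 1.00). In the EC NR had 9.21, 4.49 and 9.54 in L4, against 9.26, 9.27 and 9.56 in WT. Only L4 EC replicate 2 was low: the change was -1.61 (standard error 1.08, adjusted p = 0.715) with it and 0.016 without it.

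ETR2, of subfamily I like NR and ETR1, was separated in the EC. It had 7.36, 3.54 and 5.84 in the L4 EC, against 7.78, 7.94 and 8.56 in the WT EC. The highest L4 value was just under the lowest WT value, and the 3 L4 arrays were far apart. The change was -2.51 (standard error 0.85, adjusted p = 0.589), or -1.50 without L4 EC replicate 2. In the S ETR2 ranged over 6.58 to 7.74 in L4 and 6.97 to 8.69 in WT and the genotypes overlapped, with a change of -0.61 (standard error 0.85).

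ETR5, of subfamily II, ranged over 6.09 to 6.40 in the L4 S, against 6.56 to 7.96 in the WT S, with no overlap and a change of -0.995 (standard error 0.45, adjusted p = 1.00). In the EC it spanned 6.27 to 7.25 in L4 and 6.53 to 7.96 in WT, which overlapped. The EC change was -0.68 (standard error 0.45), or -0.52 without L4 EC replicate 2. ETR1 overlapped between the genotypes in both sectors. In the EC its change was -1.41 (standard error 1.00), or -0.60 without L4 EC replicate 2. The S change was 0.41 (standard error 1.00), or -0.72 without WT S replicate 3, where ETR1 stood at 7.04 against 9.91 and 10.94 on the other WT S arrays. For the 6 receptors as a group, all 6 changes were negative in the EC (median -2.06), or 5 of 6 without L4 EC replicate 2 (median -0.97). In the S 5 of 6 were negative (median -1.01).

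The CTR kinases, Raf-like protein kinases of which CTR1, CTR3 and CTR4 can replace the Arabidopsis CTR1 gene, were not separated between the genotypes in either sector. CTR1 spanned 5.54 to 6.57 in the L4 EC and 5.67 to 6.07 in the WT EC. Its EC change was 0.25 (standard error 0.47, interval -0.82 to 1.31), or 0.51 without L4 EC replicate 2. In the S it spanned 5.16 to 6.81 in L4 and 5.27 to 6.61 in WT, with a change of -0.13 (standard error 0.47, interval -1.19 to 0.93). It was the only member with a positive estimate in the EC when all arrays were used. Its probe set is of a type that may also bind transcripts of related genes. In the EC CTR3 had an estimate of -0.85 (standard error 0.78), or -0.24 without L4 EC replicate 2. For the S its estimate was 0.20 (standard error 0.78), or -0.71 without WT S replicate 3, which stood at 5.25 against 7.81 and 8.19 on the other WT S arrays. CTR4 had -0.999 in the EC, or -0.32 without L4 EC replicate 2. For the S it had -0.82, or -0.35 without L4 S replicate 3. With all arrays the standard error was 0.61 in each sector. The intervals of all 3 kinases include 0 in both sectors, but in the EC they reach -2.61 for CTR3 and -2.38 for CTR4, so that equal levels are not shown.

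**Figure D2:**
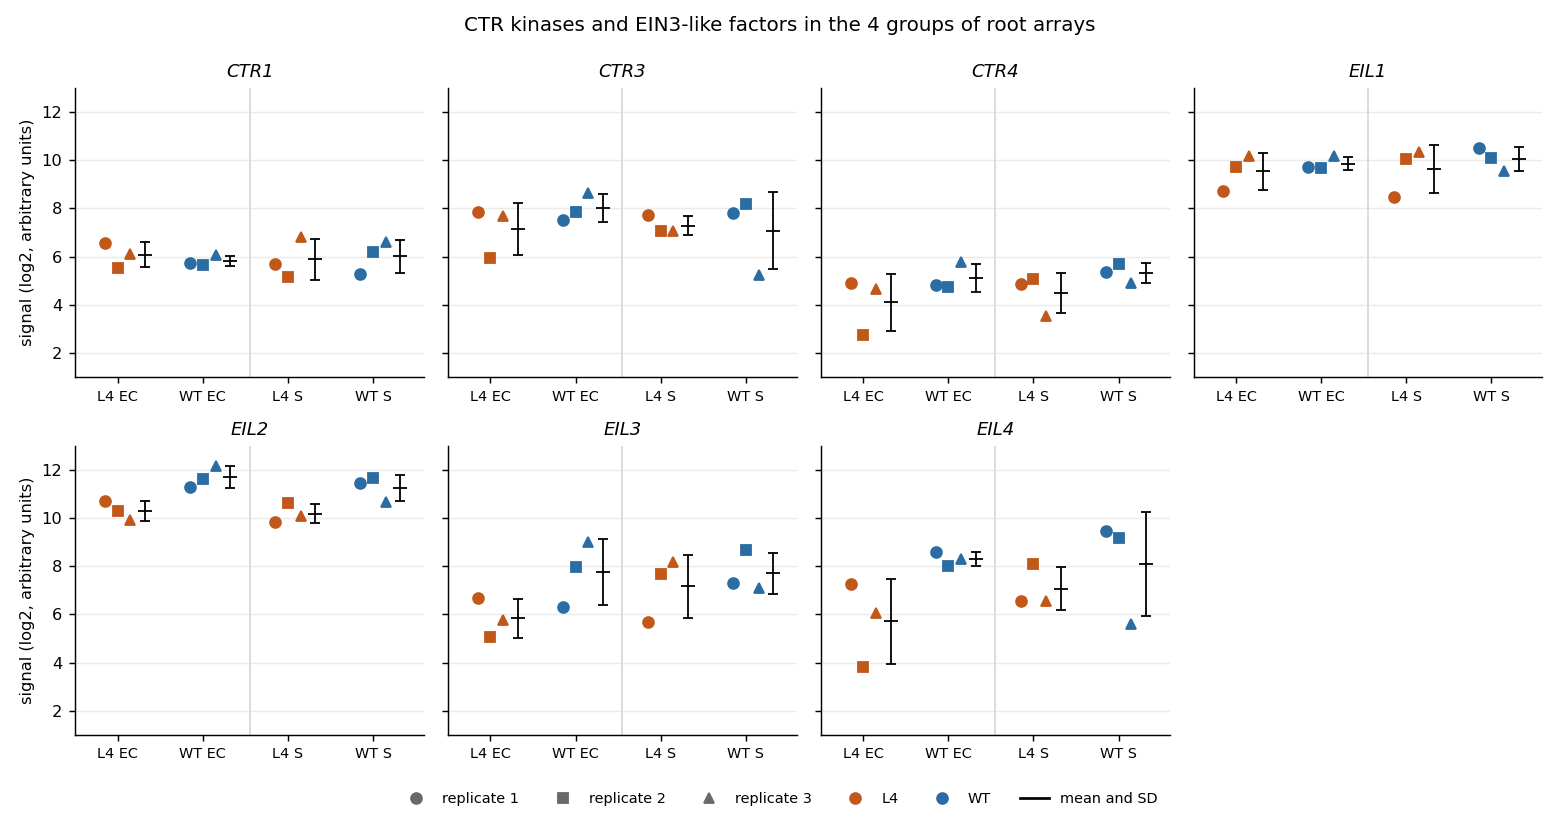
Log2 signal of the CTR kinases and EIN3-like factors on each array (vertical axis) in L4 EC, WT EC, L4 S and WT S (horizontal axis). Marker shapes are replicate numbers, and the black marks are the group mean and SD (n = 3). EIL2 is lower on the L4 than on the WT arrays of the same sector, EIL4 only in the EC, and the CTR kinases overlap throughout.

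Among the EIN3-like factors, of which EIL1, EIL2 and EIL3 are known to act redundantly in tomato ethylene responses, EIL2 was separated in both sectors. Its values were 10.70, 10.28 and 9.89 in the L4 EC, against 11.27, 11.62 and 12.16 in the WT EC. In the S they were 9.84, 10.63 and 10.08 in L4, against 11.45, 11.64 and 10.64 in WT. The highest L4 S value and the lowest WT S value were nearly equal, while in the EC the gap was wider. In the EC this was a change of -1.39 (standard error 0.36, interval -2.19 to -0.59, 2.63-fold lower, adjusted p = 0.501), the same to 2 decimals without L4 EC replicate 2. In the S it was -1.06 (standard error 0.36, interval -1.86 to -0.26, 2.09-fold lower, adjusted p = 1.00).

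EIL4, which was described from ripening tomato fruit, had 7.27, 3.80 and 6.06 in the L4 EC, against 8.60, 8.02 and 8.30 in the WT EC. All L4 EC values were lower than the WT EC values, with a mean change of -2.60 (standard error 1.11, adjusted p = 0.683), or -1.64 without replicate 2. In the S EIL4 had 6.54, 8.10 and 6.56 in L4, against 9.47, 9.16 and 5.61 in WT. WT S replicate 3 was the lowest of these 6 arrays, and the change was -1.02 (standard error 1.11) with it and -2.25 without it. EIL3 spanned 5.07 to 6.66 in the L4 EC and 6.31 to 9.02 in the WT EC, and the genotypes overlapped in both sectors. It had an EC change of -1.93 and an S change of -0.54, each with a standard error of 0.85. Without L4 EC replicate 2 the EC change was -1.55. EIL1 was the factor with the smallest estimates, -0.33 in the EC (interval -1.51 to 0.85) and -0.43 in the S (interval -1.62 to 0.75). Its EC estimate was -0.42 without L4 EC replicate 2. EIL1 and EIL4 have 1 other gene between them in the SLM_r2.1 tomato assembly, so they are close neighbours on a chromosome.

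**Figure D3:**
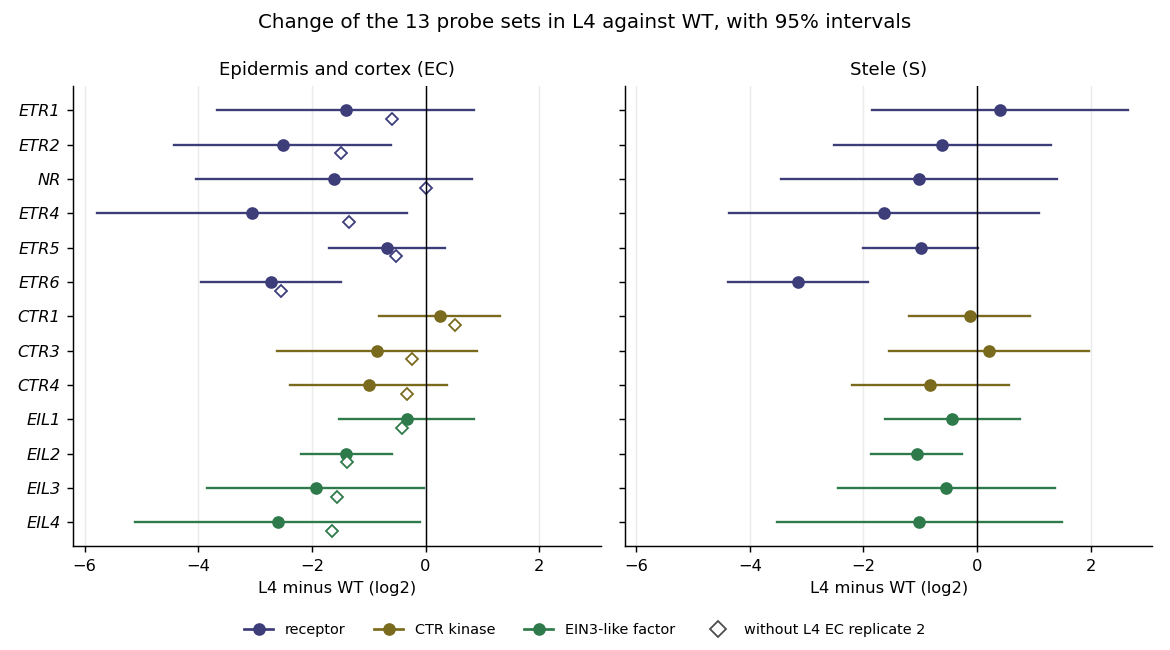
Change of each member in L4 against WT (horizontal axis, log2) in the EC and the S, with 95% intervals from limma. Open diamonds give the EC difference without L4 EC replicate 2. Both intervals of ETR6 and of EIL2 lie below 0, and the NR diamond lies at 0.016.

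The EC and S arrays of a genotype that share a replicate number were taken as 1 root pool, which the labels do not state. Their deviations from the group means correlated between -0.27 and 0.031 in L4, where the values thus do not bear out a pairing. In WT they correlated between 0.062 and 0.63. The highest value was that of WT replicate 1, whose EC and S arrays also had high leaf marker means (8.63 and 8.13). Averaged over such pools, 3 for each genotype, again 0% of all probe sets were called (smallest adjusted p = 0.0562) and 0 of 13 members. Of these averages 12 of 13 were lower in L4 (median -1.23), against 40.7% of all probe sets and 59.6% of the expressed ones. EIL2 had the lowest adjusted p of a member, 0.299, with a change of -1.23 (standard error 0.17), followed by ETR6 with -2.93 (standard error 0.45, adjusted p = 0.302). Without adjustment for the number of probe sets, at a p under 0.05 and a difference of 1.2-fold or more, 7 members were lower in L4: ETR2, ETR4, ETR6, CTR4, EIL2, EIL3 and EIL4. This was so for 4.5% of all probe sets and 7.95% of the expressed ones. Without root pool 2 of WT only ETR6 and EIL2 were, against 2.52% and 4.39%, and without root pool 3 of WT 4 members, against 4.03% and 6.81%. The median over the members was -0.81 without root pool 2 of L4. By the same unadjusted threshold 6 members were lower in the EC (ETR2, ETR4, ETR6, EIL2, EIL3 and EIL4), against 4.83% and 8.83%. Without L4 EC replicate 2 these were ETR2, ETR4, ETR6 and EIL2, against 2.95% and 5.17%. Without WT EC replicate 2 or 3 they were the 3 members ETR2, ETR6 and EIL2. The shares were 2.5% and 2.29% of all probe sets, and 4.54% and 4.05% of the expressed ones. In the S 2 members were lower (ETR6 and EIL2), against 1.32% and 1.81%. Without L4 S replicate 1 only ETR6 was, against 1.83% and 3.19%, and likewise without WT S replicate 2, against 0.891% and 1.3%. Without L4 EC replicate 2 NR and ETR4 were added to the 2, against 1.59% and 2.32%. No member was higher past that threshold over both sectors, in the EC or in the S, against 2.42%, 2.26% and 1.18% of all probe sets.

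Between the sectors no member was called either. The EC was compared with the S of the same root pool, and limma called 0% of the probe sets in L4 (smallest adjusted p = 0.623) and 0% in WT (smallest adjusted p = 1.00), and 0 of 13 members were past the unadjusted threshold in either genotype, against 4.07% of all probe sets in L4 and 2.73% in WT. In L4 the EC was lower for 10 of 13 members (median -0.39), against 42.9% of all probe sets and 66% of the expressed ones. Without L4 EC replicate 2 it was lower for 2 of 13 members (median 0.34). In WT the EC was lower for 5 of 13 (median 0.075), against 58.3% and 47.5%, and without WT S replicate 3 for 13 of 13 (median -0.35). With each array left out in turn, the median ran over -0.79 to 0.34 in L4 and -0.35 to 0.43 in WT. The shares over probe sets were computed with all arrays only, so the counts with an array left out have no background beside them.

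NR and ETR6 were the members whose EC was below the S in 3 of 3 WT root pools, as in 9.88% of all probe sets. The EC minus S differences of these pools were -0.62, -0.30 and -0.093 for NR, and lay between -1.08 and -0.0265 for ETR6. The mean differences were -0.34 for NR (standard error 0.98) and -0.70 for ETR6 (standard error 0.37), with adjusted p = 1.00 for both. In L4 no member was below or above in 3 of 3 pools; a shift of this kind upwards was seen for 8.07% and downwards for 8.27% of all probe sets. ETR4 had an EC minus S difference of -1.15 in L4 (standard error 1.11) and 0.27 in WT (standard error 1.11), and EIL2 had 0.11 in L4 and 0.44 in WT (standard error 0.43 each).

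**Figure D4:**
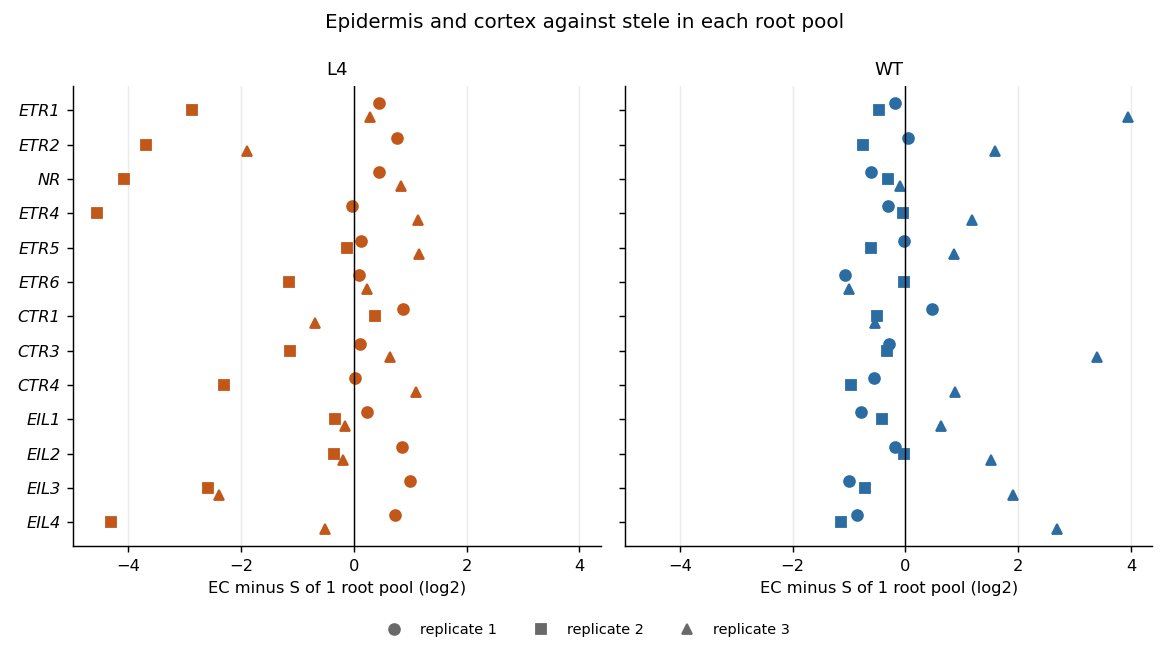
EC minus S of each root pool (horizontal axis, log2) for the 13 members, in L4 and in WT. Marker shapes are replicate numbers. Replicate 2 of L4 lies at -4.08 for NR and -4.56 for ETR4, and replicate 3 of WT lies at 3.96 for ETR1.

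Whether the genotype change differed between the sectors was tested as an interaction. None of the members was called or past the unadjusted threshold, against 0% and 2.4% of all probe sets (smallest adjusted p = 0.983). The change was lower in the EC than in the S for 9 of 13 members (median -0.60), against 40.9% of all probe sets and 64.6% of the expressed ones. It was lower for 6 of 13 without L4 EC replicate 2 (median 0.22), and likewise for 6 of 13 without WT S replicate 3 (median 0.18). The leave-one-out medians ran over -1.18 to 0.22, and the shares were not computed with an array left out. The estimate was -0.60 for NR (standard error 1.38), -1.42 for ETR4 (standard error 1.57), 0.43 for ETR6 (standard error 0.52) and -0.33 for EIL2 (standard error 0.61). The intervals are wide, for example -0.87 to 1.74 for ETR6, so that equal changes in the 2 sectors are not shown.

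The order of the group means differed between members, and neighbours in that order mostly overlapped. For NR it was, from low to high, L4 EC (7.75 ± 2.83, SD, n = 3), L4 S (8.68 ± 0.10), WT EC (9.36 ± 0.17) and WT S (9.70 ± 0.16), and L4 EC and L4 S were the neighbours that overlapped. For ETR6 the order was L4 EC (2.85 ± 0.73), L4 S (3.13 ± 0.87), WT EC (5.57 ± 0.70) and WT S (6.27 ± 0.47), with no overlap between L4 S and WT EC. EIL2 ran L4 S (10.18 ± 0.40), L4 EC (10.29 ± 0.40), WT S (11.25 ± 0.53) and WT EC (11.68 ± 0.45), and each group overlapped the next. ETR4 ran L4 EC (7.01 ± 3.01), L4 S (8.15 ± 0.11), WT S (9.79 ± 0.55) and WT EC (10.06 ± 0.85), with no overlap between L4 S and WT S. For the other 9 members every group overlapped the next.

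The rest of the ethylene pathway on the array was counted by lists. None of its genes was called. For the counts below and in the next paragraph, 39.3% of all probe sets and 64.5% of the expressed ones were lower in L4 in the EC. In the S 52% and 48.2% were. ACS2, ACS3, ACS4, ACS5, ACS7, ACS8, PTI4, EREB, ERF4 and E8 averaged below 4 in all 4 groups. They are thus not among the expressed, but they enter the counts and medians of the lists. Of 11 response factor genes, the ERF family that EIN3-like factors switch on, 8 were lower in L4 in the EC (median -1.10) and 9 in the S (median -0.57). ERF2 had 3.36, 3.75 and 2.48 in the L4 EC, against 6.33, 8.20 and 8.92 in the WT EC. In the S ERF2 had 4.11, 3.38 and 4.20 in L4, against 7.99, 8.93 and 7.80 in WT. The genotypes did not overlap in either sector, and both changes, -4.62 in the EC (adjusted p = 0.139) and -4.34 in the S (adjusted p = 0.346), had a standard error of 0.64. No probe set had a smaller adjusted p in either sector. JERF1 (-1.10, standard error 0.40) and JERF3 (-1.45, standard error 0.61) were past the unadjusted threshold in the EC, but not without L4 EC replicate 2 (-0.69 and -1.41). Without that array the ERF2 change was -4.90. The S median of the list was -0.19 without WT S replicate 2 and -0.94 without WT S replicate 3.

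Of 11 ethylene synthesis genes, 6 were lower in L4 in the EC (median -0.15, or -0.33 to -0.0070 with 1 EC array left out) and 9 in the S (median -0.52, or -0.24 without WT S replicate 2). ACO5 encodes an ACC oxidase, the enzyme of the last step of ethylene synthesis. It had 1.95, 5.56 and 3.06 in the L4 EC, against 6.58, 12.02 and 12.55 in the WT EC. In the S it had 2.97, 2.01 and 2.71 in L4, against 8.31, 12.25 and 9.73 in WT. All L4 values were lower than all WT values of the sector, with estimates of -6.87 for the EC (adjusted p = 0.457) and -7.53 for the S (adjusted p = 1.00) and a standard error of 1.63 for each. The signal was under the lower quartile of the array on L4 EC replicate 1 and L4 S replicate 2, so these L4 values lie near the bottom of the scale. The EC change was -7.88 without L4 EC replicate 2. Of 10 genes named for their response to ethylene, 6 were lower in L4 in the EC (median -0.24, or -0.010 without L4 EC replicate 2) and 4 in the S (median 0.14, or -0.20 to 0.40 with 1 S array left out). ER66 (-1.37, standard error 0.50) and ER1 (-3.72, standard error 1.63) were past the unadjusted threshold in the EC; without L4 EC replicate 2 ER66 was (-1.45) and ER1 was not (-4.34). EIN2, the step between the CTR kinases and the EIN3-like factors, was not past the unadjusted threshold, with estimates of 0.63 in the EC and 0.30 in the S. ER24, a transcriptional coactivator, was not past it either and had 0.046 in the EC and 0.068 in the S. Its group means were 2.71 to 2.82, near the bottom of the scale, so its small changes say little.

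Genes with a pattern like that of a member were taken as the 3 named probe sets with the highest Pearson r over the 12 arrays, among 908 others. These r describe arrays that share genotype, sector and signal range. For ETR6 they were ERF2 (0.915), LOC778326 (0.904) and sus3 (0.892), and for EIL2 CBF1 (0.894), LOC543830 (0.894) and LOC778326 (0.892). Without L4 EC replicate 2 these r lay between 0.875 and 0.912. The matches of NR were Rab1C (0.949), tst (0.946) and OPT1 (0.936), but their r was 0.341, 0.242 and 0.440 over the 11 other arrays, so they rest on that array. ETR4 was most like NR (0.933, and 0.713 without that array). ETR1 and CTR3 matched each other (0.942) and both matched PDS (0.961 and 0.946) and MEK1 (0.946 and 0.938). Both were low on WT S replicate 3 (7.04 and 5.25) and L4 EC replicate 2 (7.37 and 5.93). Their r was 0.926 without the latter, and r without WT S replicate 3 was not computed. EIL4 was most like ERF3 (0.931), ETR2 most like LOC543655 (0.950), ETR5 like RBOH1 (0.879), CTR1 like CycA3 (0.795), CTR4 like CUL4 (0.935), EIL1 like ChrC (0.690) and EIL3 like TBG4 (0.942). Among the 78 pairs of members the median r was 0.544, and 0.400 without L4 EC replicate 2, with 71 and 68 pairs positive. The same was not computed for pairs of other probe sets, so these counts are not read as a trait of the members.

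Markers of the sectors and of leaf were read beside these results. The mean log2 value of 7 EC marker probe sets was 4.31 to 5.06 in the L4 EC, 4.45 to 5.11 in the WT EC, 3.81 to 4.26 in the L4 S and 4.01 to 4.58 in the WT S. The EC and S were thus narrowly apart in L4 and overlapped in WT. Of the 7 EC markers, 5 had a higher mean in the EC than in the S in L4, and 6 in WT. The largest difference in L4 was that of EXPA8, 6.46 in the EC against 3.19 in the S. The EC marker exp18 went the other way, with 8.92 against 9.83 in L4, and was lower in the EC in WT too. The EC marker FRO1 was under the lower quartile on 11 of the 12 arrays and PT2 on 9. The mean of 4 S marker probe sets was 5.5 to 6.34 in the L4 EC, 6.44 to 6.58 in the WT EC, 5.64 to 6.19 in the L4 S and 5.77 to 6.89 in the WT S, so these markers did not set the S apart from the EC. The S marker sus3, a sucrose synthase, had a change of -1.73 in L4 EC (adjusted p = 0.317) and -1.32 in L4 S (adjusted p = 1.00), each with a standard error of 0.31 and no overlap between the genotypes, and it followed ETR6 as given above. Of the other S markers SUT2 had an EC estimate of 0.044 and an S estimate of 0.17, and the SUT4 probe set of higher signal had -0.29 and 0.23. The second SUT4 probe set disagreed, with -0.019 for the EC and -0.77, past the unadjusted threshold, for the S. Of the 7 EC markers, 3 were below and 4 above 0 as estimated for the EC (median 0.071). PT1 and PT2, which take up phosphate, had -1.75 (standard error 0.61) and -1.52 (standard error 0.40) there, both past the unadjusted threshold, whereas EXPA8 had 1.70 and Dif54 0.93. Of the leaf markers, 3 chlorophyll-binding protein genes averaged 7.62 on L4 EC replicate 1 and 6.14 on L4 EC replicate 2, 8.63 on WT EC replicate 1 and 8.13 on WT S replicate 1, and 2.60 to 3.95 on the other 8 arrays. The part of these markers in the genotype changes of the members was not tested.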

How the data were processed

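Laser-captured root tissue of L4 and WT was hybridised to 12 GeneChip Tomato Genome Arrays. For each probe set the authors deposited a log2 value, made by a summarisation not given in the sources used here. Every one of the 12 value columns entered, so that 0 stayed unused. The 108 control probe sets of the 10209 were dropped, and the other 10101 were tested whatever their signal; 9192 of these carry no symbol and 909 carry 1. Sample labels gave the groups, and the EC and S arrays of a genotype that bear the same number were treated as 1 root pool, which the labels do not state.

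Tests used limma 3.58.1 in R 4.3.3, with all 12 arrays for L4 against WT within a sector, 6 pool means for both sectors together, and the root pool as a block for EC against S and for the interaction. Calls needed an adjusted p under 0.05 (Benjamini-Hochberg over all tested) and 1.2-fold. The functions were tested on simulated data. Precision is limited by the number of arrays, and the p-values cover only the spread between these root pools.

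The members and lists were chosen with earlier results of these data known. Named were every member, list genes past an unadjusted p under 0.05 and 1.2-fold in a sector, the 3 best matches of each member by Pearson r (for some only the first), and markers. Chosen after their values were seen were 2 further signalling genes (EIN2 and ER24) and the pathway list genes that averaged below 4 in every group. Among several probe sets of a gene the one with the highest mean was used. Alternatives changed the normalization (quantile, median centring), the filter (mean log2 value of 4 or more), the moderation (trend and robust), the blocks (replicate number, root pool fixed, random or absent), the weighting (array weights, spike-in mean as a covariate) and the arrays (only the 6 compared, or each array or pool left out). Dropping the 3 arrays of highest spike-in signal, leaving out arrays from the lists and from the counts of members, and the background over expressed probe sets, were chosen after seeing the data. Matplotlib 3.10.9 under Python 3.11.15 drew the figures. No leaf sample was analysed here.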

Additional observations from a re-analysis of the deposited data

How the results depend on the processing

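No member was called in any comparison as tested. Of the values recomputed for single members, 875 kept sign and call, 40 changed sign and 4 became called. Many of these values could not change sign, because the alternative left the estimate as it was. This holds for the moderation, the filter, the replicate block and the dropping of an array of the other sector. It holds too for the root pool taken as a random block or left out, and for only the 6 arrays compared. The sector comparisons and the interaction were recomputed singly only for NR, ETR4, ETR6 and EIL2. Sign changes of the other members there are not counted. For EC minus S in L4, 10 of 13 members were negative with all arrays, and 2 without L4 EC replicate 2. The share over all probe sets was 42.9% with all arrays and was not computed without that one. Of the counts of called probe sets, 88 stayed within 1.5 times the count as tested and 18 moved from 0. Precision was limited by 3 arrays for each group and by L4 EC replicate 2, WT S replicate 3 and L4 S replicate 3. ETR6 in L4 lay near the bottom of the signal range. ETR2, ETR4, ETR5, ETR6, CTR4, EIL2 and EIL4 kept a negative change in L4 under every alternative run in both sectors and over both together.

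With array weights, 1467 of the 10101 probe sets tested were called in the EC, and 4 of the 13 members. The estimation of the weights stopped before reaching its convergence tolerance and gave L4 EC replicate 2 a weight of 0.0674. The members called were ETR2 (-2.04), ETR6 (-3.25), EIL2 (-1.67) and EIL4 (-2.03), while NR (0.11) and EIL1 (0.19) changed sign in the EC. The share called among the expressed probe sets is not given, so these 4 calls are not read as a trait of the members. The weights called 2 probe sets in the S, where ETR1 (-0.14), CTR1 (0.16) and CTR3 (-0.40) changed sign. Without the 3 arrays of highest spike-in signal, the calls were 8 in the EC and 7 for the S, none of them a member, NR was 0.016 in the EC, and ETR1 (-0.43) and CTR3 (-0.59) changed sign in the S. With only the 6 arrays compared 1 probe set was called in the EC. Over both sectors, median centring gave 2 calls and the filter on a mean of at least 4 gave 3, again with no member. The cause of these moves was not tested.

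Leaving out each array or pool gave 0 to 10 calls in the EC, 0 to 3 in the S and 0 to 9 over both sectors, none of them a member. In the EC the change then ran over -2.51 to 0.016 for NR, the upper end without L4 EC replicate 2, and -0.65 to 0.080 for EIL1. In the S it ran over -0.72 to 1.23 for ETR1 and -0.71 to 0.76 for CTR3, both lowest without WT S replicate 3, -0.59 to 0.23 for CTR1, -0.79 to 0.13 for EIL1 and -1.04 to 0.21 for EIL3. Over both sectors it ran over -0.18 to 0.37 for CTR1, -0.62 to 0.039 for CTR3 and -0.72 to 0.11 for EIL1. For EC minus S in L4 the range was -1.82 to 0.64 for NR, -2.29 to 0.56 for ETR4, -0.52 to 0.17 for ETR6 and -0.27 to 0.34 for EIL2, and in WT it was -0.18 to 0.57 for ETR4 and -0.11 to 0.75 for EIL2. For the interaction it was -1.48 to 0.98 for NR, -2.57 to 0.28 for ETR4 and -0.71 to 0.21 for EIL2.

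With the replicate number as a block 0 probe sets were called in the EC (smallest adjusted p = 0.256), in the S (0.507) and over both sectors (0.438), and no call changed. Whether the numbers pair the genotypes is not given by the labels: the deviations of same-numbered L4 and WT arrays correlated between -0.10 and 0.28 in the EC and between 0.070 and 0.38 in the S. Without the root pool block 0 probe sets were called between sectors or in the interaction.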
